A study of Homo sapiens with 28 samples.

Results

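The receptor tyrosine kinase genes described here are 39 genes of 14 families, taken by name, and the accessible sites assigned to them are the consensus peaks that overlap a gene's body or the 10 kb on either side of it in GRCh38. This gave 409 of the 105048 peaks in the table. All 39 genes had at least 1 peak, 362 of the peaks overlapped a gene body, and 47 lay in the flanks alone. The numbers of peaks per gene were unequal: ROR1 had 44, ALK 37, ERBB4 34, IGF1R 27, EPHB2 23 and EGFR 20, while KDR had 1. No peak fell in the regions of more than 1 of the genes.

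Receptor tyrosine kinases are single-pass membrane proteins that bind a ligand outside the cell, pair up, and phosphorylate one another's cytoplasmic tails. Adaptors docked on the phosphorylated tails pass the signal to the RAS to MAPK and the PI3K to AKT routes, which act on growth, survival and movement. In epithelial cancers, members of the ERBB, MET, FGFR, insulin receptor and EPH families are among the best-studied of these receptors, and switching between receptors is a known way in which tumour cells adjust to drugs.

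Chromatin accessibility was measured by ATAC-seq, which uses a transposase to cut and tag open DNA, in Kuramochi cells, an established line of high-grade serous ovarian cancer that the labels describe as epithelial with a BRCA2-mutant genotype. The drug was olaparib, an inhibitor of the DNA repair enzyme PARP. There were 10 groups with 2 libraries each. The 7 adapted populations were grown to tolerate 5, 10, 20, 40, 80, 160 or 320 uM olaparib, carry that dose in their names (T5 up to T320), remained under it, and were sorted for low CD24 and high CD44. The persister groups P10 and P320 were cells without earlier adaptation that met 10 or 320 uM for 9 days, and no sort is named for them. The untreated population C was also sorted on CD24 and CD44, without a stated gate. All groups grew in the same medium, which contained insulin, a ligand of INSR. Where P cells are set against T or C cells, the sort cannot be told apart from adaptation or exposure. Since the labels do not say whether the libraries of a group came from separate cultures, p-values of the group comparisons measure only the spread between these libraries.

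Total counts in peaks ran from 9627970 to 29699950 per library, and the peaks of the 39 genes held between 0.328% and 0.400% of them. In C and every adapted population replicate 1 was the shallower library, with 11347046 against 22218981 counts in C. Leaving out replicate 2 of these groups thus removes the deeper library. P10 had 22184883 and 22437074 counts and P320 29699950 and 27936456. Where P cells are set against T or C cells, this difference in depth cannot be told apart from exposure either. Values are in CPM, counts brought to a common library total after TMM, a method that sets libraries level on the bulk of their peaks. They are compared between groups for 1 peak at a time, never between peaks of different width. All 8 epithelial markers examined had a gene-start peak. Their summed level was 94.2 to 98.9 CPM in T320, 150 to 152 CPM in P320 and 91.6 to 92.2 CPM in C. The sum hides changes in both directions, since 1 of the 8 was gained and 2 were lost in T320 against C. KRT18 had 13.2 and 15.9 CPM in T320, against 5.09 and 6.18 CPM in C. CLDN3 had 5.74 and 6.0 CPM in T320, against 12.1 and 20.6 CPM in C. Of the other cell types, the defining genes PTPRC and CD3E of blood, PECAM1 and CDH5 of endothelium and DCN and LUM of fibroblasts had no such peak, but other genes of these lists did in every group. The 2 of 5 blood markers with a peak, SPI1 and CD14, summed to 18.5 to 19.9 CPM in T320, 31.8 to 32.0 CPM in P320 and 23.9 to 27.1 CPM in C. The 3 of 5 fibroblast markers with a peak, COL1A1, COL1A2 and PDPN, summed to 33.2 to 33.3 CPM in T320, 36.8 to 38.1 CPM in P320 and 38.5 to 52.0 CPM in C. The 3 of 4 neural markers with a peak summed to 67.1 to 91.0 CPM in T320, 48.9 to 50.2 CPM in P320 and 27.8 to 28.5 CPM in C, and the part of any of these markers in the results below was not tested. In a bulk sample, fewer cells with an open site and a site open less often in each cell cannot be told apart.

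In T320 against C, 98 of the 409 peaks were lost and 41 were gained, where a call needs a Benjamini-Hochberg adjusted p under 0.05 over all peaks, from edgeR's quasi-likelihood test, together with a change of 1 or more on the log2 scale. Over all 105048 peaks of the table, 30.5% were called, 15.0% as gained and 15.5% as lost. The receptor peaks were thus lost more often, at 24.0%, and gained less often, at 10.0%, than peaks at large. Their median log2 fold change was -0.21, against -0.01 over all peaks. ERBB4 alone gave 25 of the 98 losses, and without its 34 peaks 41 of 375 were gained and 73, or 19.5%, were lost, with a median of -0.12.

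By gene, 18 of the 39 had at least 1 gained peak in T320, 23 had at least 1 lost peak and 11 had both. A gain without a loss was seen at FGFR1, KIT, INSR, MET, MST1R, ROR2 and PTK7. A loss without a gain was seen at ERBB4, FGFR2, EPHA1, EPHA2, EPHA3, EPHA4, EPHB2, EPHB3, EPHB6, NTRK3, FLT1 and RYK. ERBB3, FGFR3, FGFR4, PDGFRA, EPHA7, EPHB4, RET, FLT4 and KDR had no called peak in this comparison. A gene with more peaks can more readily have a called one, and the like counts over all genes are not given here. These counts of genes are thus not read as particular to the receptors.

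Accessibility can also follow the DNA copy number of a region, which was not measured here, so each comparison was also fitted after removing the median shift of every 5 Mb window of the genome. A window's median includes the gene's own peaks, so this setting also takes away part of a change shared along a gene. With that window offset, T320 against C had 43 gained and 65 lost receptor peaks, where 13.0% of all peaks were gained and 12.9% lost, so the receptor peaks lay nearer to the rest than without it. For some genes with many peaks, the counts with and without the offset are given in what follows. Genes with few peaks, such as TEK, DDR2 and EPHA2, have no count with the offset here.

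**Figure D1:**
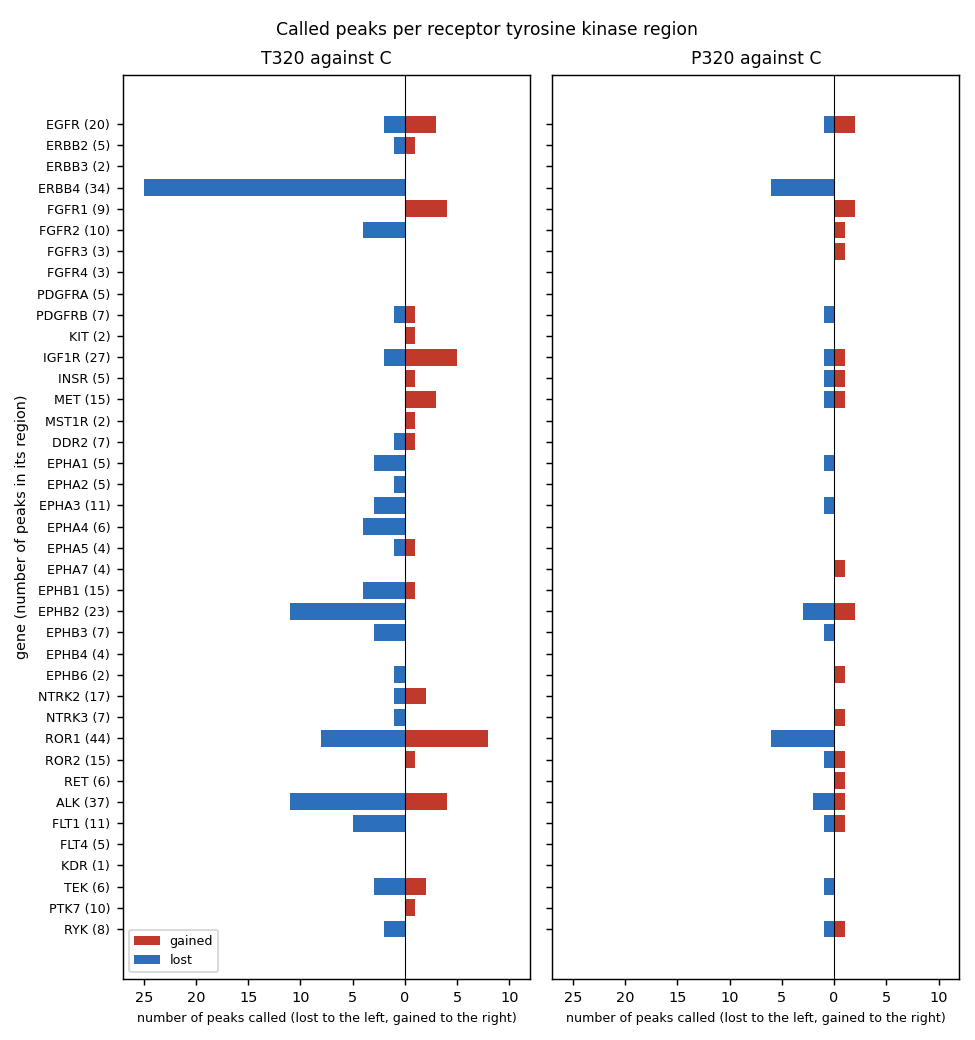
Numbers of gained (right of 0) and lost (left of 0) peaks for each of the 39 genes, with T320 against C in the left panel and P320 against C in the right one. ERBB4 stands out with 25 lost and 0 gained peaks in T320, and the bars in P320 are shorter for most genes.

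Gene-start peaks, those within 1 kb of the RefSeq start, were found for 31 of the 39 genes. For ERBB3, FGFR1 and FLT4 the reference gives no strand, and a peak at an end of the gene took that place. Such a gene-end peak may lie at the far end of the gene and not at its start. PDGFRB, MST1R, DDR2, EPHB6 and TEK had none, which leaves 34. The 250 bases before the start are shown for 4 genes on which the comparisons of gene starts turn, from RefSeq on GRCh38.p14, read 5′ to 3′ on the gene's strand, with GC boxes (GGGCGG, or CCGCCC on the other strand) in capitals. ERBB4 (chr2:212538803-212539052, minus strand) was lost in T320. INSR (chr19:7294415-7294664, minus strand) was gained in both T320 and P320. IGF1R (chr15:98648289-98648538, plus strand) and EGFR (chr7:55018767-55019016, plus strand) were gained in P320.
ERBB4: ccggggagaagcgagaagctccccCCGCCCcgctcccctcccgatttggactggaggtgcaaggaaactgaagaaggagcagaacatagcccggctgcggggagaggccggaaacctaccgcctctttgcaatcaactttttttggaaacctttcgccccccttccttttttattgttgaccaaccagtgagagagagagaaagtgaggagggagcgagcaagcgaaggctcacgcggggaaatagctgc
INSR: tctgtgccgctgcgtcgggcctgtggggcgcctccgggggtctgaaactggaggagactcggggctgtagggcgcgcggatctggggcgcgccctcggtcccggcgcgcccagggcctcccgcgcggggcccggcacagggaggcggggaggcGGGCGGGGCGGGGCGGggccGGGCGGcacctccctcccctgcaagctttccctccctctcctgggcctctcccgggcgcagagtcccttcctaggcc
IGF1R: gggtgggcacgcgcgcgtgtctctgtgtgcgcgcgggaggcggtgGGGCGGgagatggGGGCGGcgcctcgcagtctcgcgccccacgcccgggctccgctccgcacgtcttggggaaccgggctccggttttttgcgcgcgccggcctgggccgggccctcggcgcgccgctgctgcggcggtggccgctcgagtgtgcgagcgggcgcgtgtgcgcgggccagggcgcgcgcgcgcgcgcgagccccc
EGFR: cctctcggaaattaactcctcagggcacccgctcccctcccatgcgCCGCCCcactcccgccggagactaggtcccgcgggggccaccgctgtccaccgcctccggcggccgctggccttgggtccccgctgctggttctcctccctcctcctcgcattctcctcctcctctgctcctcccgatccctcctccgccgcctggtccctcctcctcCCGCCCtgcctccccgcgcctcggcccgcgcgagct
The ERBB4 stretch holds 1 GC box and 14 CpG dinucleotides, INSR 4 and 28, IGF1R 2 and 48, and EGFR 2 and 25. Among the 36 members with a promoter in the reference table, 30 (83.3%) held a GC box in these 250 bases, against 56.0% of all 15840 protein-coding promoters. Other motifs searched on both strands, without regard to overlaps, were TGANTCA of AP-1 (5.56% of members, 5.04% of all), GGAATG of TEAD (5.56%, 10.1%), CACCTG of E-box factors (11.1%, 17.1%) and CCGGAAG of ETS factors (5.56%, 11.8%). Such a match describes letters and is no evidence of binding.

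In P320, the short exposure to the highest dose, 13 of the 34 gene-start or gene-end peaks were gained against C and 0 were lost. Over all 10499 gene-start peaks 15.4% were gained and 0.505% were lost, and their median log2 fold change was 0.43, against 0.69 for the 34. The gains covered receptors of growth factors (EGFR, FGFR1, FGFR2, FGFR3, IGF1R, INSR, MET), the ephrin receptor EPHB2, the neurotrophin receptor NTRK3, the Wnt receptors ROR2 and RYK, ALK, and the VEGF receptor FLT1. The P320 libraries had 29.5% and 28.9% of their counts in gene-start peaks, against 20.8% to 27.3% in the other 18 libraries.

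IGF1R, the receptor for insulin-like growth factors, had the largest of these gains. Its start peak (chromosome 15, 98646882 to 98649346) had 37.6 and 36.3 CPM in the P320 libraries, against 10.3 and 12.3 CPM in C. The T320 libraries, at 10.7 and 10.4 CPM, lay within the range of C and far below P320. The log2 fold change was 1.70 ± 0.20 (SE, n = 2 libraries per group; adjusted p = 3.75e-05, edgeR's quasi-likelihood test) in P320 against C and -0.10 ± 0.20 in T320 against C, which was not called.

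The start peak of EGFR, the receptor for EGF and TGF-alpha, had 25.2 and 24.7 CPM in P320, against 9.85 and 11.8 CPM in C (log2 fold change 1.2 ± 0.23, adjusted p = 0.00161 in edgeR). T320 had 9.16 and 11.6 CPM, overlapping C, with a log2 fold change of -0.06 ± 0.24. FGFR1, by its gene-end peak, had 21.7 CPM in both P320 libraries, against 8.13 and 8.35 CPM in C (1.39 ± 0.24). T320 split at this peak, with 8.56 CPM in replicate 1, next to the C values, and 15.2 CPM in replicate 2.

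FGFR3, another FGF receptor, had 24.3 and 23.1 CPM in P320, against 8.29 and 10.2 CPM in C (1.35 ± 0.21). FGFR2 had 29.5 and 27.2 CPM in P320, against 9.68 and 13.7 CPM in C (1.27 ± 0.20). In T320, FGFR3 at 9.25 and 6.23 CPM and FGFR2 at 11.1 and 12.6 CPM were near the level of C. MET, the receptor for hepatocyte growth factor, had 33.0 and 34.4 CPM in P320, against 16.4 and 17.1 CPM in C (1.01 ± 0.20), which is just past the fold minimum and fell under it with total-count scaling (0.93). Its T320 values, 19.6 and 22.5 CPM, lay a little above C and were not called (0.33 ± 0.20).

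RYK had 25.2 and 25.4 CPM in P320, against 9.77 and 11.3 CPM in C (1.26 ± 0.22). ROR2 had 18.5 and 16.4 CPM in P320, against 7.22 and 7.69 CPM in C (1.22 ± 0.21). FLT1 had 15.3 and 14.1 CPM in P320, against 6.73 and 6.27 CPM in C (1.18 ± 0.23). In all 3 peaks the P320 libraries lay close together and above both C libraries. ALK had 44.5 and 43.8 CPM in P320, against 15.9 and 25.8 CPM in C (1.07 ± 0.22), so its C libraries differed more than its P320 libraries did. NTRK3, the receptor for neurotrophin-3, was low throughout, with 4.55 and 4.68 CPM in P320, against 1.15 and 2.5 CPM in C (1.29 ± 0.42, adjusted p = 0.0396 in edgeR). Its call was lost without C replicate 1 (0.88) and without either P320 library.

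These counts rest on the scaling. When TMM was computed from gene-start peaks alone, the median over all peaks in P320 against C was -0.58 where it had been -0.11, and among the 34 peaks IGF1R alone was still called (1.26, adjusted p = 0.000303 in edgeR). With the window offset 12 of the 34 were gained.

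In P10, the same exposure to the lower dose, 9 of the 34 peaks were gained and 0 were lost, against 9.02% and 1.23% of all gene-start peaks. They were FGFR1, FGFR3, IGF1R, INSR, EPHB2, ROR2, RET, FLT1 and RYK, and 8 of them, all but RET, were gained in P320 as well. FGFR3 had 21.0 and 20.9 CPM in P10, RYK 23.7 and 22.4 CPM, and FLT1 13.6 and 14.7 CPM, each above both C libraries. Both comparisons share the C libraries, and the like overlap over all gene-start peaks is not given here. At a start peak of RET, the receptor for GDNF family ligands, P10 had 7.14 and 6.84 CPM, against 3.53 and 2.5 CPM in C.

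Few of these gains were seen in the adapted populations. In T320, 1 of the 34 was gained (INSR) and 2 were lost (ERBB4 and EPHA1), against 4.59% and 4.67% of all gene-start peaks, and the median of the 34 was -0.02, against 0.13 over all gene-start peaks. With the window offset ERBB4 alone was called, as lost, while 2 were gained and 3 lost without T320 replicate 1 and 4 and 2 without C replicate 2. At T5 and T10 none was called, where 0.591% and 2.50% of all gene-start peaks were gained and 1.13% and 1.58% were lost. At T20 INSR, EPHB4 and NTRK3 were gained and ERBB4 was lost, against shares of 4.76% and 2.53%. At T40 and T80 2 were gained and 1 was lost, against 5.94% and 2.88% at T40 and 4.81% and 2.60% at T80. At T160 EPHA1 alone was lost, against 3.05% gained and 2.84% lost.

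INSR, the insulin receptor, was the start peak gained in T320. It (chromosome 19, 7293517 to 7295407) had 8.31 and 7.62 CPM in T320 and 6.57 and 8.51 CPM in P320, against 3.20 and 3.68 CPM in C. All 4 libraries of T320 and P320 lay above both C libraries, and T320 and P320 overlapped. The log2 fold change in T320 against C was 1.2 ± 0.23 (adjusted p = 0.000357 in edgeR), and with the window offset it was 0.91, under the fold minimum.

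ERBB4, a receptor for neuregulins, was the clearest lost start in T320. The peak (chromosome 2, 212536148 to 212539746) had 9.76 and 9.41 CPM in T320, against 25.2 and 31.6 CPM in C. P320, at 30.3 and 27.6 CPM, lay within the range of C and well above T320. The log2 fold change in T320 against C was -1.57 ± 0.21 (adjusted p = 1.7e-05 in edgeR) and -1.05 with the window offset, still called. At EPHA1, an ephrin-A receptor, the start peak (chromosome 7, 143406748 to 143409407) had 9.33 and 4.53 CPM in T320, against 17.6 and 16.1 CPM in C. The groups did not overlap (-1.32 ± 0.42, adjusted p = 0.017), but the call was lost with the window offset (-0.94), when C replicate 1 was left out (adjusted p = 0.0571) and likewise for T320 replicate 2 (adjusted p = 0.221, all in edgeR).

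EPHA2, the ephrin-A receptor most often studied in carcinoma, changed by less than the fold minimum in T320. Its start peak (chromosome 1, 16154260 to 16157077) had 29.97 and 38.6 CPM in T320, against 59.91 and 59.97 CPM in C (log2 fold change -0.80 ± 0.17, adjusted p = 0.000761 in edgeR). All 14 libraries of the adapted populations, at 28.5 to 40.3 CPM, lay below both C libraries, while P320 lay above them at 75.6 and 73.7 CPM. The median shift of the genome window that holds EPHA2 was -0.68 in T320 against C and -0.02 in P320 against C. The fall of the EPHA2 start peak in T320 was thus little larger than that of its region. ERBB2, the partner receptor without a known ligand of its own, had 19.9 and 27.4 CPM in T320 and 19.5 and 17.7 CPM in P320, against 11.2 and 22.9 CPM in C. The C libraries were so far apart that they spanned both P320 values and 1 of the T320 values, and nothing was called (T320 0.46 ± 0.30, P320 0.11 ± 0.30). Without C replicate 2 the T320 change was 1.09 and called. That peak also covers the start of PGAP3. The ERBB3 gene-end peak, which lies at the start of PA2G4, had 43.8 and 54.8 CPM in T320 and 47.2 and 46.0 CPM in P320, against 34.0 and 47.7 CPM in C, with overlapping groups and no call (0.27 ± 0.21 and 0.19 ± 0.21).

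**Figure D2:**
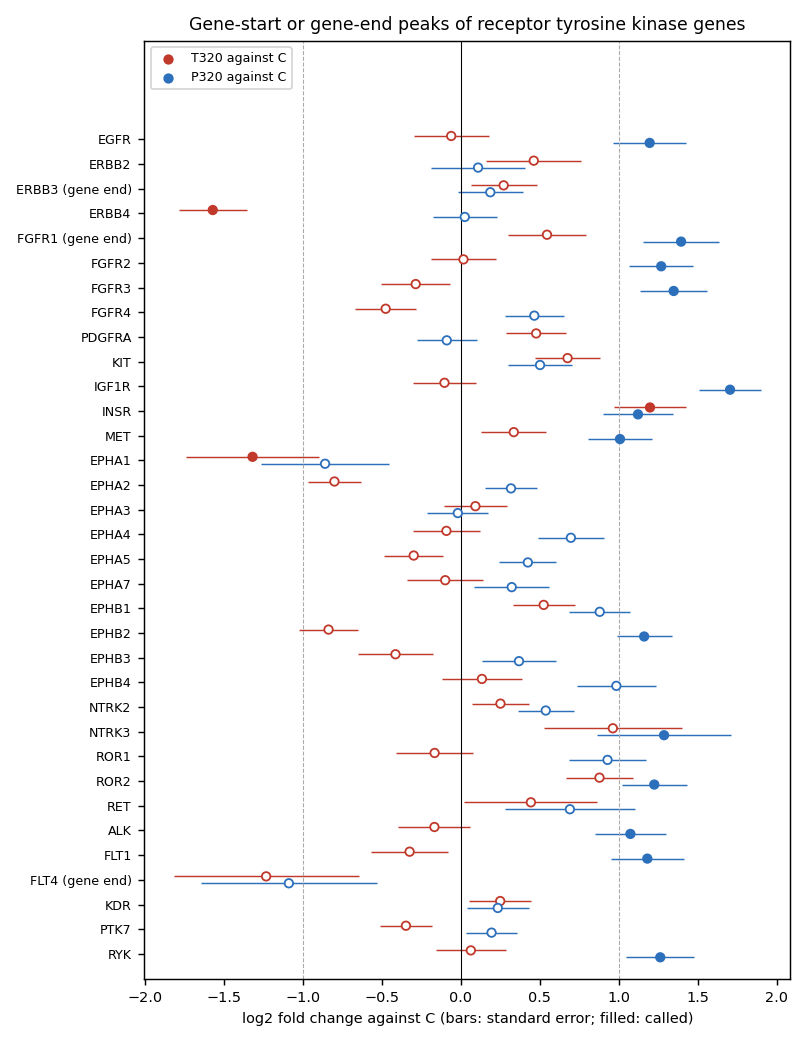
Log2 fold change (points, with bars of 1 SE) of the gene-start or gene-end peak of 34 genes in T320 against C and P320 against C, with filled points for called peaks. In P320 the 13 called peaks lie between 1.01 and 1.70, while in T320 INSR is the called rise and ERBB4 and EPHA1 are the called falls.

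Set directly against each other, T320 and P320 differed at 11 of the 34 gene-start or gene-end peaks, each lower in T320. Over all gene-start peaks 20.6% were lost and 2.90% gained. The 11 were EGFR, ERBB4, FGFR2, FGFR3, IGF1R, EPHA2, EPHB2, ROR1, ALK, FLT1 and RYK. EPHB2 had the largest difference, with 7.19 and 7.13 CPM in T320, against 27.1 and 30.1 CPM in P320 (-2.0 ± 0.18, adjusted p = 2.38e-07 in edgeR). C was between them at 13.7 and 11.98 CPM, overlapping neither. IGF1R followed with -1.81 ± 0.20 and FGFR3 with -1.63 ± 0.22. With the window offset 8 of the 11 were still called, and with TMM from gene-start peaks 5. EPHA2 differed by -1.12 ± 0.17, where the median shift of its window between T320 and P320 was -0.66.

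The gene starts gained in P320 had many CpG dinucleotides in the 250 bases before the start. That measure played no part in choosing the genes. The 12 gained starts with a promoter in the table had a median of 30 CpG (23 to 48), against a median of 17 for the 19 members whose start peak was not gained and 17 over all promoters. None of the 5 members with 0 to 14 CpG nor of the 7 with 15 to 22 was gained. Of those with 23 to 29 CpG 6 of 11 were gained, and 6 of 8 with 30 or more. The class limit of 23 is the lowest count among the gained starts. The lack of gained members in the classes below it thus follows from where the limit was set. Over all genes with a start peak the share gained was 5.90%, 6.96%, 14.2% and 38.4% in the same 4 classes. In T320 against C the all-gene medians stayed between 0.10 and 0.15 on the log2 scale in all 4 classes.

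**Figure D3:**
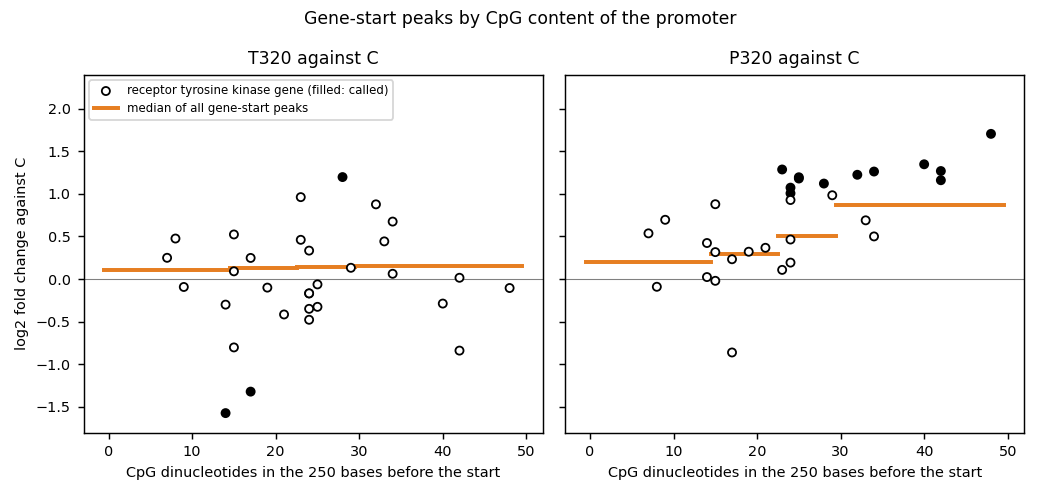
Log2 fold change of the start peak of 31 genes against the number of CpG dinucleotides in the 250 bases before the start, with T320 against C and P320 against C in separate panels and the medians of all gene-start peaks per CpG class as lines. In P320 the members at 23 CpG or more reach 1.70, and the line climbs from 0.20 in the lowest class to 0.87 in the highest, while in T320 it is flat.

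Counts per family and gene in T320 against C stand beside 15.0% gained and 15.5% lost over all peaks. Away from the starts, the ERBB family had 4 gained and 28 lost of 61 peaks in T320 against C, and ERBB4 had 25 of the losses. Of its 34 peaks 0 were gained, and their median log2 fold change was -1.60. The losses were spread along the gene, and the largest lay 150.2 kb inside it (chromosome 2, 212388157 to 212388992). That peak had 0.94 and 0.40 CPM in T320 and 4.13 and 3.20 CPM in P320, against 5.99 and 8.20 CPM in C. T320 was lowest, P320 between and C highest, without overlap, and the log2 fold change in T320 was -3.50 ± 0.58 (adjusted p = 0.000117 in edgeR).

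The number of lost ERBB4 peaks did not grow steadily with dose. They numbered 0, 3, 17, 24, 22, 10 and 25 in order of dose from 5 to 320 uM, and the median reached -1.67 at 40 uM. In the dose trend 33 of the 34 slopes were below 0, with a median of -0.20 log2 units per doubling, and 1 was called. The region around it was lower too: the 5 Mb window shift was -0.51 in T320, and of 53 peaks in the flanking 1 Mb on either side 12, or 22.6%, were lost. With the window offset 17 of the 34 peaks were lost. In the persister groups 18 of the 34 were lost in P10 and 6 in P320, which the window offset lowered to 4 and 2. The P10 count was 6 without C replicate 2 and 8 without P10 replicate 2. The P320 count was 1 without P320 replicate 1, 2 without replicate 2 and 16 with TMM from gene-start peaks. The T20 count was 7 without T20 replicate 2, and with the window offset T40 had 15 lost peaks and T80 12.

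**Figure D4:**
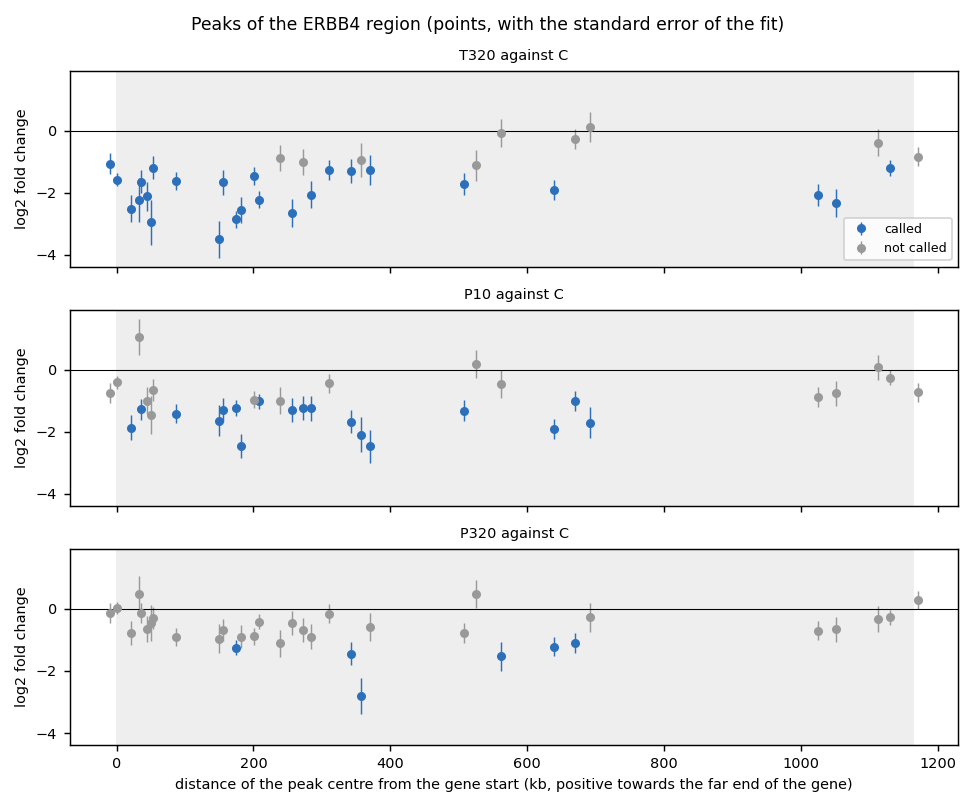
Log2 fold change (with bars of 1 SE) of the 34 ERBB4 peaks against their distance in kb from the gene start, in T320, P10 and P320 against C. In T320 most points lie below -1 along the whole gene, with the start peak at -1.57 and the lowest point at -3.50, while in P320 most lie between -1 and 0.

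EGFR went the other way at single sites. A peak 167.2 kb into the gene (chromosome 7, 55185710 to 55186679) had 9.25 and 9.32 CPM in T320 and 1.59 and 1.97 CPM in P320, against 2.30 and 1.37 CPM in C (T320 2.37 ± 0.57, adjusted p = 0.00258 in edgeR). P320 and C overlapped, and T320 stood far above both, as did P10 with 8.20 and 6.63 CPM. A second peak, 114.4 kb into the gene (55132709 to 55134172), was gained in all drug-treated groups but T5 and T10 (log2 fold change 0.90 in T10, under the fold minimum), with 19.2 and 29.4 CPM in T320, 29.9 and 31.3 CPM in P10 and 18.0 and 19.0 CPM in P320, against 8.45 and 5.80 CPM in C. Of its 20 peaks EGFR had 3 gained and 2 lost in T320, and the same numbers with the window offset, but 2 and 0 without T320 replicate 2. At ERBB2 a flank peak over the neighbouring gene PGAP3 (chromosome 17, 39677418 to 39678456) had 9.93 and 7.35 CPM in T320, against 4.02 and 1.08 CPM in C. A flank peak on the other side, at an end of GRB7 (39737675 to 39741225), had 20.4 and 14.3 CPM in T320, against 39.3 and 43.9 CPM in C.

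The EPH receptors, which bind ephrins on neighbouring cells, had far more lost than gained peaks in T320, though most of their peaks were not called. EPHA genes had 1 gained and 12 lost (34.3%) of 35 peaks, and EPHB genes 1 and 19 (37.3%) of 51. Over all peaks 15.0% were gained and 15.5% lost. The window shift in T320 against C ran from -0.79 at EPHB2 to 0.25 at EPHA3. Counts of these 2 families with the window offset are not given here. The largest fall of all receptor peaks was in the flank beyond EPHB3, 27.6 kb from its start (chromosome 3, 184589194 to 184589581). It had 0.94 and 0.22 CPM in T320 and 3.53 and 3.64 CPM in P320, against 10.0 and 10.7 CPM in C. The groups stood in 3 separate steps, and the log2 fold change in T320 was -4.31 ± 0.73 (adjusted p = 0.000125 in edgeR). The fall was already there at the lowest dose, with 1.48 and 1.46 CPM in T5.

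EPHB1 had a peak (chromosome 3, 135066674) with 3.17 and 1.88 CPM in T320 and 17.3 and 19.5 CPM in P320, against 18.1 and 25.3 CPM in C (T320 -3.15 ± 0.52). P320 overlapped C, and T320 was far below both. EPHB2 had 11 of 23 peaks lost and 0 gained in T320. Its peak 94.6 kb into the gene (chromosome 1, 22804916 to 22805952) had 3.08 and 1.12 CPM in T320 and 8.22 and 7.32 CPM in P320, against 13.4 and 15.9 CPM in C, again in 3 separate steps. The EPHB2 region as a whole was lower, with a window shift of -0.79 and 36.7% of 147 flanking peaks lost, and with the window offset 4 of the 23 were lost. EPHA4 had 4 of 6 peaks lost, EPHB3 3 of 7 and EPHA3 3 of 11, where the offset gave 4 for EPHA3. The EPHA3 count was 0 without C replicate 2 and 1 without T320 replicate 2.

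The insulin receptor family had 6 gained and 2 lost of 32 peaks in T320. IGF1R had a peak (chromosome 15, 98953745 to 98955078) with 10.1 and 16.3 CPM in T320 and 3.99 and 4.46 CPM in P320, against 3.86 and 2.31 CPM in C (T320 2.14 ± 0.34). T320 stood above both, and the adapted populations up to T160 had 2.37 to 6.40 CPM. The peak was not called in P10 against C. Another IGF1R peak (98962167 to 98963030) went down, with 1.2 and 0.72 CPM in T320 and 7.77 and 6.47 CPM in P320, against 5.99 and 9.15 CPM in C. The IGF1R window shift was 0.50 in T320, and with the offset the gene had 2 gained and 3 lost peaks in place of 5 and 2. Without T320 replicate 2 it had 2 gained and 2 lost.

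FGFR1 had 4 gained and 0 lost of 9 peaks in T320. A peak at the gene's other end (38411669 to 38412499) had 9.50 and 10.1 CPM in P320, against 2.30 and 2.03 CPM in C, which was the largest rise of all receptor peaks in P320 (2.19 ± 0.27, adjusted p = 6.27e-05 in edgeR). It was gained in T320 as well (1.5). FGFR2 had 0 gained and 4 lost of 10, and 2 lost without C replicate 2. Its most affected peak (chromosome 10, 121553332 to 121554476) had 3.43 and 2.96 CPM in T320 and 15.8 and 16.5 CPM in P320, against 14.7 and 35.0 CPM in C. P320 fell inside the wide range of the C libraries, and T320 lay far below it. The peak was lost in P10 against C as well.

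MET had 3 gained and 0 lost of 15 peaks in T320, with or without the window offset, and 4 gained and 1 lost without T320 replicate 1. The peak 2.7 kb after its start (chromosome 7, 116674509) had 9.68 and 12.9 CPM in T320 and 3.04 and 3.46 CPM in P320, against 3.20 and 3.11 CPM in C (T320 1.84 ± 0.27, adjusted p = 3.37e-05 in edgeR). P320 overlapped C. At the lower doses it had 5.15 and 3.55 CPM (5 uM), 7.80 and 9.69 CPM (10 uM) and 12.8 and 15.7 CPM (20 uM), so it had reached its T320 level at 20 uM. A peak 44.8 kb into the gene had 12.1 and 17.1 CPM in T320, against 5.83 and 4.53 CPM in C (1.52). MET was thus gained against C at 2 sites inside the gene and 1 in its flank in T320, and at its start in P320.

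KIT, the receptor for stem cell factor, had its rise 3.9 kb after the start (chromosome 4, 54661361 to 54662307). The peak had 8.82 and 15.2 CPM in T320 and 1.31 and 2.08 CPM in P320, against 2.54 and 1.27 CPM in C. P320 and C overlapped, and T320 stood above both (2.72 ± 0.36, adjusted p = 1.21e-05 in edgeR). The peak was gained in P10 against C as well. PDGFRA, the neighbour of KIT in the same 5 Mb window with a shift of 0.59, had no called peak among 5. The peak gained at PDGFRB lies in its flank, at the start of CSF1R, and had 9.85 and 11.3 CPM in T320, against 5.83 and 2.78 CPM in C.

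ROR1, a Wnt5a receptor with many sites, moved both ways, with 8 gained and 8 lost of 44 peaks in T320. The largest rise of all receptor peaks was 359.3 kb into ROR1 (chromosome 1, 64132890 to 64133824). It had 10.9 and 17.1 CPM in T320 and 1.41 CPM in both P320 libraries, against 2.38 and 1.13 CPM in C. P320 lay inside the range of C, and T320 was several-fold above (3.07 ± 0.35, adjusted p = 3.01e-06 in edgeR). The peak was gained in P10 against C as well. A second ROR1 peak (63960018) had 5.91 and 10.5 CPM in T320 and 0.60 and 0.78 CPM in P320, against 2.13 and 1.23 CPM in C (2.35 ± 0.44). That peak was not called in P10 against C. The ROR1 region was lower at large, with a window shift of -0.71 and 37.0% of flanking peaks lost, and with the offset the gene had 15 gained and 3 lost peaks.

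ALK had 4 gained and 11 lost of 37 peaks in T320, and 4 and 3 with the window offset, where the shift was -0.69. Without T320 replicate 2 it had 1 gained and 3 lost, and without C replicate 2 it had 0 and 9. Its most affected peak (chromosome 2, 29596074 to 29597936) had 4.02 and 1.66 CPM in T320 and 9.71 and 9.47 CPM in P320, against 24.6 and 31.5 CPM in C. The groups stood apart in the same 3 steps as at EPHB3 (T320 -3.39 ± 0.32, adjusted p = 6.2e-07, and P320 -1.55 ± 0.27, adjusted p = 0.000805, both in edgeR). FLT1 had 0 gained and 5 lost of 11 peaks in T320, and the same with the offset. A FLT1 peak near its start (chromosome 13, 28486407) had 1.88 and 0.72 CPM in T320 and 4.38 and 6.35 CPM in P320, against 8.21 and 15.1 CPM in C (T320 -3.27 ± 0.56).

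TEK, the angiopoietin receptor of endothelium, had 2 gained and 3 lost of 6 peaks in T320, in the window with the strongest shift of all the genes, -1.17. Its peak at 27193852 to 27195244 on chromosome 9 had 11.8 and 17.5 CPM in T320 and 6.35 and 6.65 CPM in P320, against 4.51 and 2.22 CPM in C (T320 2.18 ± 0.30). Among these groups T320 was highest and C lowest, without overlap. The peak was gained in P10 against C as well. Of the endothelial markers 4 of 6 had a gene-start peak, and they summed to 25.9 to 29.6 CPM in T320, 43.7 to 47.4 CPM in P320 and 38.2 to 40.5 CPM in C, and their part in the TEK values was not tested. RYK, whose kinase is inactive, had a flank peak (chromosome 3, 134155257) with 2.997 and 1.12 CPM in T320 and 8.82 and 8.95 CPM in P320, against 18.2 and 19.4 CPM in C (T320 -3.30 ± 0.42).

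The remaining families had few calls in T320. NTRK genes, the neurotrophin receptors, had 2 gained and 2 lost of 24 peaks, DDR2, a collagen receptor, 1 and 1 of 7, RET 0 and 0 of 6, and the kinase-inactive pair of PTK7 and RYK 1 and 2 of 18. FGFR4 and KDR, a VEGF receptor, had no call among 3 peaks and 1 peak. MST1R had 1 gain among 2 peaks.

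**Figure D5:**
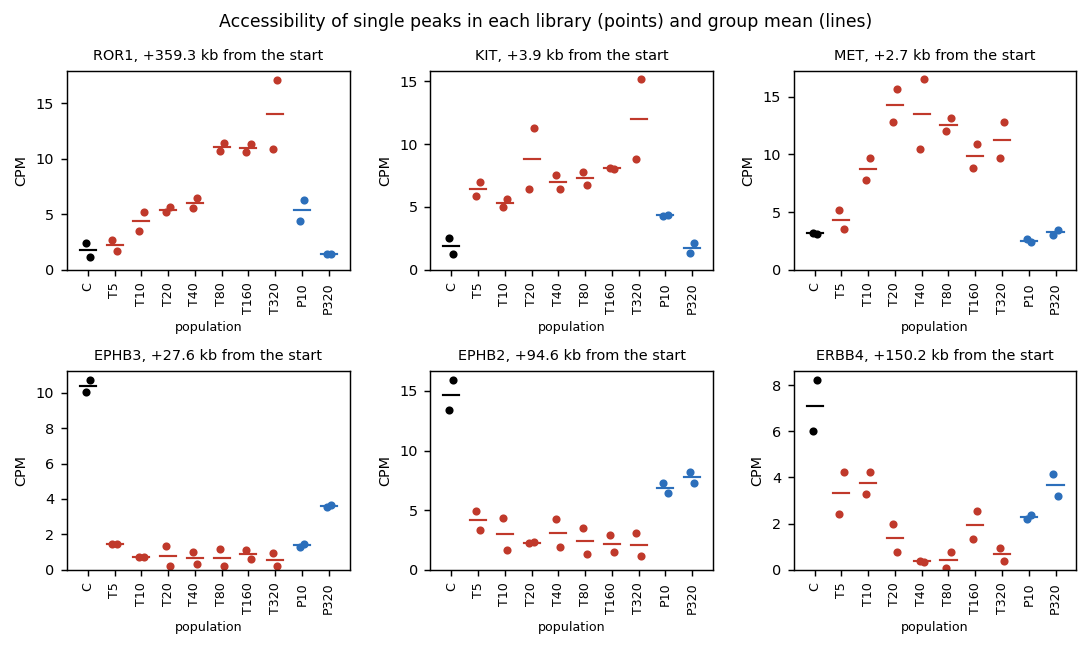
CPM of each library, 2 per group, for 6 peaks inside or beside ROR1, KIT, MET, EPHB3, EPHB2 and ERBB4, across C, the adapted populations in order of dose, and P10 and P320. The EPHB3 and EPHB2 peaks are low from T5 on, the MET peak climbs to T20, and ROR1 and KIT reach their highest library in T320 at 17.1 and 15.2 CPM.

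In the persister comparisons 40 of the 409 peaks were gained and 50 lost in P10 against C, where 9.32% of all peaks were gained and 12.8% lost (22.1% called). The P10 total of 90 calls fell to 49 without C replicate 2. In P320 against C 19 were gained and 29 lost, where 3.94% of all peaks were gained and 7.91% lost (11.8% called), so the receptor peaks were near the background. With TMM from gene-start peaks 2 were gained and 91 lost, where 0.838% of all peaks were gained and 20.6% lost. The P320 total of 48 fell to 30 without P320 replicate 1 and to 28 without replicate 2. The P10 calls were led by EPHB2 with 6 gained and 1 lost peaks, EGFR with 5 and 0, EPHA3 with 0 and 7, and ROR1 with 4 and 7, beside the 18 lost at ERBB4. The largest fall in P320 was inside ERBB4 (chromosome 2, 212181750), with 0.25 and 0.45 CPM in P320 and 1.71 and 0.94 CPM in T320, against 2.63 and 2.31 CPM in C (P320 -2.81 ± 0.58, adjusted p = 0.00278 in edgeR). P320 was lowest, and no group overlapped another.

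Other falls in P320 rested on low counts. ROR1 peaks at 64154063 and 64118551 had 1.41 and 1.26 CPM and 1.13 and 0.67 CPM in P320, against 3.78 and 5.05 CPM and 3.53 and 2.41 CPM in C. An EGFR peak at 55158033 had 0.99 and 1.08 CPM in P320, against 4.68 and 1.93 CPM in C, and an EPHB2 peak at 22886029 had 1.41 and 1.49 CPM in P320, against 5.17 and 3.82 CPM in C. In each the P320 libraries lay below both C libraries, but all 4 calls were lost without P320 replicate 1 or without replicate 2. Between T320 against C and P320 against C, 3 peaks were gained in both (EGFR 55132709, FGFR1 38411669 and the INSR start). Another 13 were lost in both, and 0 were called in opposite directions. The 2 comparisons use the same C libraries, and the like shares over all peaks are not given here. These counts are thus not read as particular to the receptor peaks.

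Directly compared, T320 and P320 differed at 131 receptor peaks, with 48 gained and 83 lost in T320, where 19.7% of all peaks were gained and 14.5% lost (34.2% called). With at most 2 peaks per gene, the largest rises were the ROR1 peaks at 63960018 (3.58 ± 0.46) and 64132890 (3.31 ± 0.34), KIT 54661361 (2.84 ± 0.34), the ERBB2 flank peak at 39677418 (2.59 ± 0.39), EGFR 55185710 (2.38 ± 0.55) and IGF1R 98889982 (2.28 ± 0.49). The largest falls were IGF1R 98962167 (-2.95 ± 0.45), EPHB1 135066674 (-2.91 ± 0.51), EPHB3 184589194 (-2.78 ± 0.72), ERBB4 212505358 (-2.70 ± 0.69), ERBB4 212388157 (-2.54 ± 0.58) and FGFR2 121553332 (-2.35 ± 0.33). ROR1 had 12 gained and 4 lost peaks here, MET 4 and 0, EPHB2 0 and 9, EPHB1 0 and 5, and ERBB4 2 and 17, or 1 and 11 without T320 replicate 2. This comparison moved with scaling, to 63 gained and 59 lost receptor peaks with the window offset, where 16.7% of all peaks were gained and 12.4% lost. With TMM from gene-start peaks it had 78 and 39, where 26.4% of all peaks were gained and 6.74% lost, and that scaling gave a median of all peaks of 0.38 in place of 0.03.

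Across the 7 adapted populations receptor peaks called against C numbered 33, 62, 110, 110, 108, 87 and 139 in order of dose, and losses outnumbered gains in each. Of all peaks 9.19%, 17.7%, 24.5%, 25.2%, 26.0%, 23.5% and 30.5% were called. The lost peaks numbered 19, 41, 82, 85, 81, 64 and 98, while 4.46%, 9.22%, 13.3%, 13.3%, 13.6%, 12.5% and 15.5% of all peaks were lost. The gained peaks numbered 14, 21, 28, 25, 27, 23 and 41, while 4.73%, 8.51%, 11.2%, 11.8%, 12.3%, 11.0% and 15.0% of all peaks were gained. T5 was thus near the background in both directions. From T20 on the receptor peaks were lost more often, and gained less often, than peaks at large. ERBB4 made up part of the excess of losses. Without its peaks 17.3%, 16.3%, 15.7%, 14.4% and 19.5% were lost from T20 to T320, nearer to the shares of all peaks. The gained shares without ERBB4 were 7.47%, 6.67%, 7.20%, 6.13% and 10.9%. These totals rest in part on single libraries: T5 fell to 10 calls without T5 replicate 2 and to 15 without C replicate 2, and T10, T20 and T40 fell to 35, 62 and 72 without their own replicate 2.

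Some sites were changed from the lowest dose on. The 3 peaks gained in all 7 adapted populations were the ERBB2 flank peak, the KIT peak and ROR1 63946639 (to 63948090), and the last had 4.35 and 3.91 CPM in C, 18.4 and 18.9 CPM in T5, 29.7 and 36.1 CPM in T20 and 17.4 and 22.6 CPM in T320, with 3.18 and 3.79 CPM in P320. It was several-fold above C in every adapted library and did not rise with dose. The 10 lost in all 7 were FGFR2 121553332, EPHA4 221542123, EPHB1 135066674, EPHB2 22804916, EPHB3 184578619 and 184589194, ALK 29530335 and 29596074, and TEK 27164863 and 27184676. For EPHB2 22804916 the values were 13.4 and 15.9 CPM in C, 4.98 and 3.37 CPM in T5 and 3.08 and 1.12 CPM in T320, so most of the loss was present at T5. In at least 5 of the 7 populations 16 peaks were gained and 45 lost. These comparisons also share the C libraries, and the shares of all peaks called in several populations are not given here. The counts are thus not read as particular to the receptor peaks.

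A dose trend, fitted without C on 1 summed count per adapted population, called 9 rising and 10 falling receptor peaks, against 3.37% and 2.35% of all peaks (5.72% called). None of the 34 gene-start or gene-end peaks was among them, where 0.314% and 0.400% of all gene-start peaks were. The p-values of the trend measure the scatter of the 7 populations around a line. With 1 population per dose, dose cannot be told apart from other differences between the populations. The steepest rise was EGFR 55185710, with 1.96 and 0.45 CPM in T5, 5.40 and 0.97 CPM in T40, 4.50 and 4.60 CPM in T160 and 9.25 and 9.32 CPM in T320 (slope 0.53 ± 0.06 log2 units per doubling of dose, adjusted p = 0.00369 in edgeR's quasi-likelihood test). The replicates of T40 were far apart, and both T320 libraries were above every other adapted library. TEK 27124285 (slope 0.44 ± 0.08), DDR2 162678356 (0.43 ± 0.07) and ROR1 64132890 (0.43 ± 0.06) followed. The falls were ROR1 64042433 (-0.37 ± 0.08), EPHA5 65552071 (-0.35 ± 0.08), ERBB4 212484744 (-0.32 ± 0.09) and IGF1R 98962167 (-0.30 ± 0.09). The ROR1 peak stood at 20.9 and 22.9 CPM for 5 uM, 10.1 and 11.9 CPM for 10 uM, 4.003 and 3.06 CPM for 40 uM and 3.68 and 3.59 CPM for 320 uM, so most of its fall was complete at 40 uM. The DDR2 call and the 4 falling calls were lost when T320 was left out, and the total was 7 without T320, 12 without T10 or T80 and 47 without T160.

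Genes around the receptors were read by their gene-start or gene-end peak. Of 30 ligand genes with such a peak, 2 were gained in T320 against C and 3 lost. NRG1, a neuregulin that binds ERBB3 and ERBB4, had 8.13 and 9.28 CPM in T320, against 3.37 and 2.92 CPM in C (log2 fold change 1.48), and FGF5 had 15.1 and 19.3 CPM in T320, against 5.50 and 4.81 CPM in C (1.75). Both stood clear of C. The 3 lost were ephrins: EFNA1 (-1.03), EFNA4 (-1.10) and EFNB2 (-1.16). Among the adaptor and transducer genes NRAS (-1.13) and GRB7 (-1.27), whose peak is the ERBB2 flank peak above, were lost. None of 20 feedback regulators was called in T320, with DUSP6 at -0.09 and SPRY2 at -0.15. Of 13 further receptor tyrosine kinase genes CSF1R (1.34, the PDGFRB flank peak) and STYK1 (1.25) were gained and TIE1 (-1.69) was lost.

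In P320 against C the same lists had gains and no losses, as gene-start peaks did at large (15.4% gained). Among ligands 4 were gained (FGF9, PDGFA, VEGFA and VEGFB), among transducers IRS2, PLCG1, HRAS, MAP2K2 and PIK3R1, among feedback regulators ERRFI1 (1.26), an inhibitor of EGFR, and CBL (1.28), a ubiquitin ligase that acts on activated receptors, and among the further receptors FLT3.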

How the data were processed

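The authors deposited whole-number counts per consensus peak for 20 of the 28 labelled samples, described as read counts per the labels. No column exists for 8 labelled samples of T320 under renewed or withdrawn drug, which were not analysed here. Libraries followed Omni-ATAC, with about 50000 cells each and paired-end sequencing, per the labels' protocols. The submitters' processing notes name, without roles, Bowtie2, deepTools 3.1 and 3.5.1, DESeq2, HOMER 4.1, MACS2, Picard, SAMtools and Trim Galore, and the build GRCh38. Whether reads or fragments were counted, how duplicates were treated and from which base starts are counted is not given in the sources used here.

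Counts of all 105048 peaks were fitted with edgeR 4.0.16 (R 4.3.3; quasi-likelihood, robust, TMM; filterByExpr removed 0 peaks) over 10 groups without a replicate block, since the labels do not say that replicate numbers pair samples. Standard errors come from that fit, with n = 2 libraries per group. The call rule was an adjusted p (Benjamini-Hochberg) under 0.05 with an absolute log2 change no smaller than 1, or for the trend on log2 dose a slope no smaller than 0.25. Tests were first tried on simulated counts. Other settings tried were a 5 Mb window offset, TMM from gene-start peaks, scaling to total counts, DESeq2 1.42.0, a replicate block, other filters, no fold minimum, and leaving out libraries.

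In T320 against C, P320 against C and T320 against P320 the peaks named included the 6 largest rises and 6 largest falls among called receptor peaks. These had to reach 2 CPM in either group without overlap of the libraries, with at most 2 peaks per gene and direction. Called gene-start or gene-end peaks were named too. Those of EGFR, ERBB2, ERBB3, MET, IGF1R, FGFR1 and EPHA2 were named in any case. For the trend the peaks named were 4 rises and 4 falls. Other peaks named were chosen after their values were seen. Some genes of the marker and pathway lists are not reported here. The genes, lists and rules were chosen with earlier results of these data known, so their counts are read beside those of all peaks and carry no test of their own.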

Additional observations from a re-analysis of the deposited data

How the results depend on the processing

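Counts of called receptor peaks kept within 1.5 times of the reported count under total-count scaling, the window offset, DESeq2 and the other filters in every comparison against C and in T320 against P320. They left that range as follows, and the cause was not tested. T5 against C (33) had 21 with TMM from gene-start peaks, 51 with the replicate block, 56 without the fold minimum and 10 to 33 with a library left out. P320 against C (48) had 93 with TMM from gene-start peaks, 75 without the fold minimum and 28 to 49 with a library left out. Without the fold minimum T160 (87) had 136, P10 (90) 138 and the trend (19) 33. Leaving out each library gave 35 to 66 for T10 (62), 62 to 115 for T20 (110), 72 to 127 for T40 (110) and 49 to 110 for P10. The trend had 12 without T10, 12 without T80, 47 without T160 and 7 without T320. With a library left out, 4 comparisons stayed within 1.5 times. These were T80 with 73 to 116, T160 with 61 to 88, T320 (139) with 93 to 152 and T320 against P320 (131) with 104 to 148.

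Same-numbered libraries of C and of the adapted populations deviated together (correlations of 0.174 to 0.397), those of P10 and P320 with C did not (-0.01 and -0.09), and the labels do not say that the numbers pair samples. With the replicate block T320 against C had 149 calls, P10 108, P320 61 and T320 against P320 139, and it changed no call of a named peak.

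Over 81 named values, 996 alternative values were computed: 895 kept direction and side of the threshold, 82 lost the call, 5 gained it and 14 changed sign, none of them at a called peak. The changed signs were at gene-start or gene-end peaks with changes near 0. In T320 against C EGFR was 0.19 with the window offset and between -0.25 (without T320 replicate 2) and 0.086 (without replicate 1) over the left-out libraries, with 0.084 without C replicate 2, ERBB3 was -0.065 with the window offset, and IGF1R lay between -0.22 and 0.039 (without C replicate 2). In P320 against C ERBB2 was -0.31 with TMM from gene-start peaks, -0.13 with the window offset and between -0.30 (without C replicate 1) and 0.74 (without C replicate 2). ERBB3 was -0.26 with TMM from gene-start peaks and between -0.034 (without C replicate 1) and 0.45 (without C replicate 2), and EPHA2 was -0.16 with TMM from gene-start peaks. In T320 against P320 ERBB3 was -0.11 with the window offset and between -0.0897 (without T320 replicate 2) and 0.24 (without T320 replicate 1), with -0.00289 without P320 replicate 2.

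Peaks under about 2 CPM rest on few counts in the shallower libraries, and errors there are large.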
